A study of Chromochloris zofingiensis with 38 samples.

Results

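Wild-type cells of the unicellular green alga Chromochloris zofingiensis were compared 1 h after addition of a TOR inhibitor, labelled AZD, and 1 h after addition of glucose, labelled Glu. The comparison was chosen by treatment label and time, and it takes in 3 AZD and 4 Glu libraries, 7 of the 38 in the series. The remaining libraries at 1 h carry the labels None (no addition, n = 4), S (n = 4) and GA (n = 4), and each of the 5 treatments was also sampled at 24 h. What S and GA stand for, the doses and the solvent of the inhibitor are not stated in the labels. All libraries came from cell pellets of wild-type cultures, and each holds poly(A) RNA sequenced as read pairs. Nothing in the labels says that replicates were separate cultures, so p-values measure the spread between these libraries, which may be technical.

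The kinase TOR, the target of rapamycin, couples growth to nutrient supply. In eukaryotes its activity favours ribosome production and protein synthesis and holds back autophagy, and catalytic inhibitors of it stop growth. C. zofingiensis takes up glucose, and it is known for a glucose response in which photosynthesis is switched off and storage lipid and the red ketocarotenoid astaxanthin build up. The 2 treatments therefore differ in kind, since one blocks a growth kinase and the other supplies carbon, and the direct contrast asks how far apart the transcriptomes stood after 1 h. The deposited table pairs no gene ID with a name or product, so 0 IDs could be assigned to a pathway. No marker gene could be used to check the cell type, and the genes named below are given by ID alone. Levels are relative to each library's total times a scaling factor, so the amount of RNA per cell was not measured.

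The 7 libraries held 18346886 to 94879574 estimated counts. Glu replicate 4 was the deepest of them and stood apart. On the log2 scale of CPM, counts scaled to a common library size, 1273 genes of this library lay at least 2-fold from the mean of the other 3 Glu libraries. In the other 6 AZD and Glu libraries 316 to 745 genes did so. Among the other groups at 1 h, S replicate 1 also stood apart, with 1449 such genes. The deviations of these libraries from the rest of their groups ran together across the 12142 genes tested (Pearson's r = 0.52, Spearman's rho = 0.43). Of the genes at least 2-fold off in both, 550 deviated in the same direction and 43 in opposite ones. No cause of this was tested. Several counts, distances and correlations below are also given without Glu replicate 4, S replicate 1 or both. Larger fold classes, shares of counts, abundance classes and classes of change between the times are given with all libraries only.

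AZD and Glu cells differed widely after 1 h, with nearly equal numbers of genes on either side. Of 12142 genes tested, 6696 (55.1%) differed, 3252 higher in AZD and 3444 higher in Glu (edgeR's quasi-likelihood test, Benjamini-Hochberg adjusted p under 0.05, 3 libraries against 4). At least 2-fold differences numbered 1324 with AZD higher and 1571 with Glu higher, at least 4-fold 303 and 483, and at least 16-fold 30 and 62. The lean towards Glu thus grew with the size of the difference, while the median size among the genes that differed was 0.89 on the log2 scale. Without Glu replicate 4, 6743 genes differed, 3362 higher in AZD and 3381 higher in Glu. Of the 6696, 6175 differed in the same direction without that library, and 0 were called in the opposite direction. The counts without it were 1426 and 1546 at 2-fold, and larger sizes were not counted without it.

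**Figure D1:**
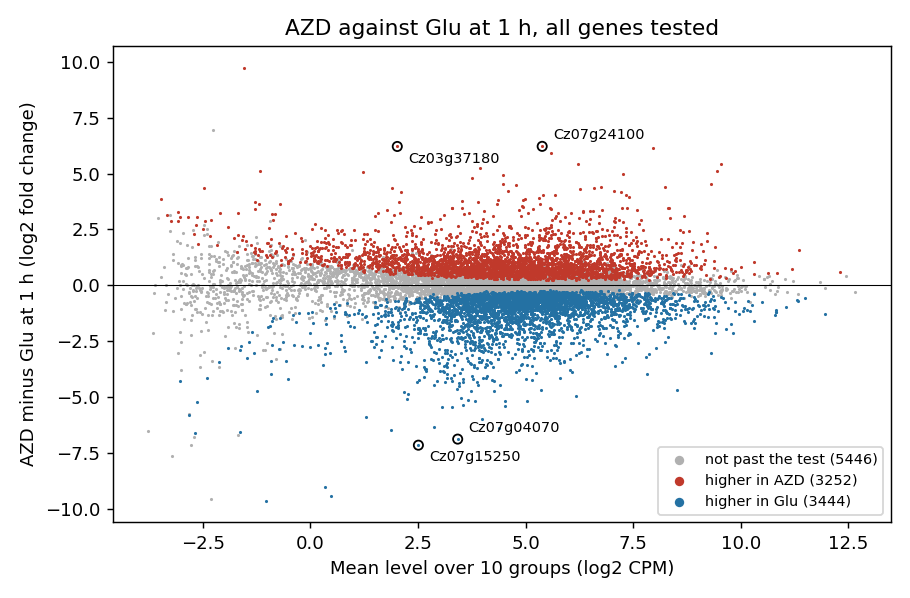
Log2 fold change between AZD and Glu at 1 h (vertical axis, positive where AZD was higher) against the mean level over the 10 groups in log2 CPM (horizontal axis), one point per gene. Red points are the 3252 genes higher in AZD, blue points the 3444 higher in Glu, grey points did not pass the test, and circles mark the named genes, all 6 log2 units or more from 0.

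The groups were farther apart than their own replicates. Taken as a root mean square of log2 differences, the AZD and Glu means lay 1.06 apart, and 1.10 without Glu replicate 4. The distance of a single library to its group's other libraries was 0.43 to 0.58 in AZD and 0.40 to 0.70 in Glu. Every AZD library lay above every Glu library in 2989 genes (24.6% of those tested) and below every Glu library in 3110 (25.6%). Of these, 2705 and 2962 also passed the test. With Glu replicate 4 left out, 3678 genes had every AZD library above and 3635 every AZD library below. Leaving out any library can only keep or raise such numbers, so a rise is partly built in. The spread was larger in Glu, where the median SD of log2 CPM per gene was 0.29 (n = 4), than in AZD with 0.23 (n = 3). Without replicate 4 the Glu value was 0.21.

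Differences between presence and near absence were few. One gene had every Glu library under 1 CPM and every AZD library at 10 CPM or more, and 4 genes had the reverse. Without Glu replicate 4 the numbers were 1 and 9, and leaving out a library can only keep or raise them. The 4 genes near absent in AZD had group means of 0.11 to 0.60 CPM in AZD and 18.2 to 36.8 CPM in Glu. Their means in None were 18.2 to 36.7 CPM and in S 16.7 to 35.3 CPM, while GA held 0.23 to 0.70 CPM. In these genes Glu stood where None and S stood, and AZD stood where GA stood. At 24 h AZD held 6.72 to 11.6 CPM of them and Glu 31.8 to 46.2 CPM.

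The genes with the largest differences were named by a fixed rule that asked for an adjusted p under 0.05, a mean of at least 10 CPM in the higher group and no overlap between the AZD and Glu libraries. Of the 4840 genes that met it, Cz07g24100 and Cz03g37180 were the farthest towards AZD. Cz07g24100 stood at 322, 325 and 255 CPM in AZD replicates 1 to 3 and at 4.39, 5.38, 2.76 and 3.53 CPM in Glu replicates 1 to 4. Each AZD library held more of it than any library of None (5.56 to 5.84 CPM), S (5.08 to 7.95 CPM) or GA (137 to 206 CPM). Between AZD (300 ± 39.7 CPM, SD, n = 3) and Glu (4.02 ± 1.13 CPM, n = 4) the log2 fold change was 6.22, with an SE of 0.17 (edgeR's quasi-likelihood test, adjusted p = 2.68e-24). Glu lay slightly under None in this gene, at a log2 fold change of -0.50 (adjusted p = 0.00709, edgeR's quasi-likelihood test).

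Cz03g37180 was the gene near absent in Glu and present in AZD. It stood at 29.2, 36.2 and 29.0 CPM in AZD replicates 1 to 3 and at 0.43, 0.24, 0.46 and 0.52 CPM in Glu replicates 1 to 4. None held 0.49 to 1.01 CPM and S 0.28 to 0.54 CPM, near the Glu libraries, and GA held 3.25 to 5.95 CPM, between Glu and AZD. The log2 fold change between AZD and Glu was 6.21, with an SE of 0.33 (edgeR's quasi-likelihood test, adjusted p = 2.62e-17). From summed counts, 2560 in AZD and 73 in Glu, the level was 73.2-fold higher in AZD, with an exact 95% interval of 58.0 to 93.6 that covers counting error only.

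Towards Glu the farthest genes were Cz07g15250 and Cz07g04070, both among the 4 near absent in AZD. Cz07g15250 had 0, 10 and 0 counts in AZD replicates 1 to 3, or 0, 0.34 and 0 CPM, and 18.5, 20.2, 21.4 and 12.7 CPM in Glu replicates 1 to 4. The 3 AZD libraries and the GA libraries (0.13 to 0.37 CPM) were low, and the libraries of Glu, None (17.8 to 20.0 CPM) and S (14.4 to 23.2 CPM) were high, with no overlap. Its log2 fold change was -7.15, with an SE of 0.44 (edgeR's quasi-likelihood test, adjusted p = 1.51e-15). From summed counts the level was 134-fold higher in Glu, with an exact 95% interval of 72.6 to 279. All AZD counts came from replicate 2. Without it the fitted log2 fold change was -12.33, and against a floor of 3 counts over the other AZD libraries the level was at least 285-fold higher in Glu.

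Cz07g04070 had 12, 9 and 4 counts in AZD replicates 1 to 3, or 0.34, 0.31 and 0.24 CPM. The Glu libraries stood at 37.6, 47.1, 39.0 and 23.3 CPM, the last in replicate 4. Glu, None (33.9 to 38.6 CPM) and S (28.2 to 45.0 CPM) overlapped, and AZD and GA (0.09 to 0.57 CPM) overlapped with each other at a far lower level. The log2 fold change between AZD and Glu was -6.88, with an SE of 0.30 (edgeR's quasi-likelihood test, adjusted p = 2.74e-19). Summed counts gave a level 107-fold higher in Glu (25 counts in AZD, exact 95% interval 72.7 to 166). The Glu and None means were 36.8 and 36.7 CPM, with an adjusted p of 0.999 between them (edgeR's quasi-likelihood test).

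**Figure D2:**
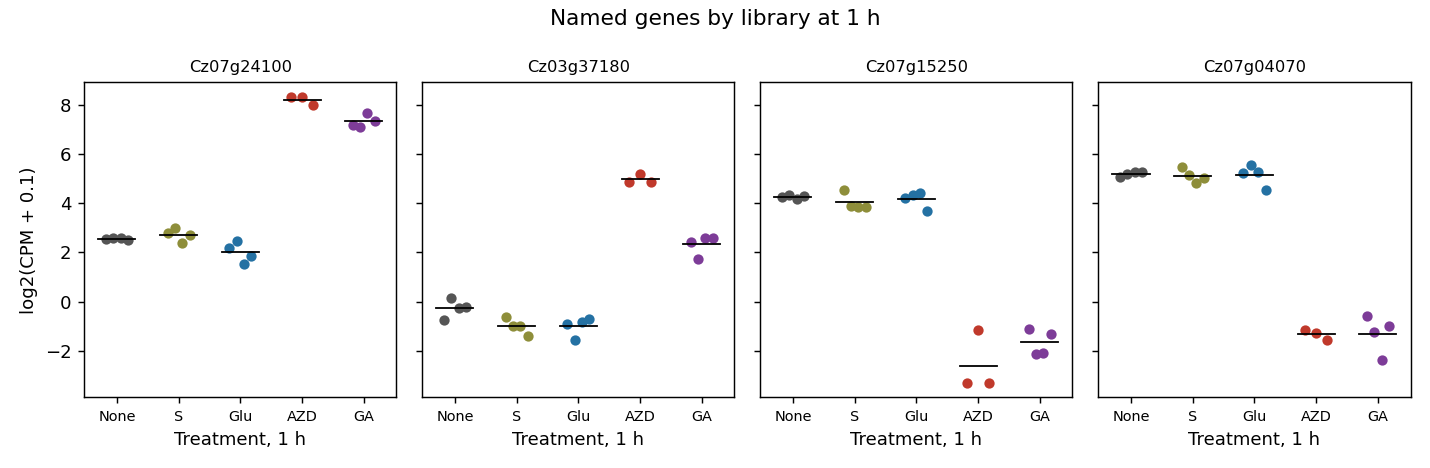
Level of the 4 named genes in every library at 1 h, as log2(CPM + 0.1) on the vertical axis, with one point per library and a line at the group mean of these values. Cz07g24100 and Cz03g37180 were high in AZD and, at lower levels, in GA, and Cz07g15250 and Cz07g04070 were near 0 CPM in both, while None, S and Glu stood close together.

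The genes higher in AZD took 36.7% ± 0.806 of the counts in the AZD libraries (SD, n = 3) and 17.5% ± 0.597 in the Glu libraries (n = 4). Those higher in Glu took 18.5% ± 0.521 and 37.8% ± 1.17. These directions follow from how the genes were chosen. None and S at 1 h, which were in the fit and not in the contrast, lay between in both shares. They held 23.0% ± 0.932 and 22.3% ± 0.398 of counts in the AZD-higher genes. In the Glu-higher genes they held 30.1% ± 0.879 and 30.0% ± 0.996. Groups outside a contrast tend to lie between by such a choice alone. GA held 27.8% ± 0.649 and 26.1% ± 0.151 (n = 4). At 24 h, AZD libraries held 32.2% ± 0.549 of counts in the genes that were higher in AZD at 1 h and Glu libraries 14.0% ± 0.620 (n = 4 each), and for the Glu-higher genes the shares were 25.7% ± 1.19 and 45.7% ± 0.511. The AZD and Glu libraries did not overlap at 24 h in either share.

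The split between the directions varied with abundance. The genes were divided into 5 classes of equal size by their mean over the 10 groups. In the lowest class (median 3.86 CPM), 652 were higher in AZD and 300 in Glu, and 39.2% of them differed. In the next class (median 15.3 CPM) the numbers were 645 and 751, and in the middle class (median 28.5 CPM) 625 and 825. Above it (median 53.5 CPM) they were 666 and 835, and in the top class (median 160 CPM) 664 and 733. At 4-fold or more the lean towards Glu was widest at 15.3 CPM, with 40 genes higher in AZD and 164 in Glu, and the middle class had 37 and 88. The lowest class also leaned towards Glu at this size, with 89 and 110, and so did the class at 53.5 CPM, with 61 and 75. In the top class the lean was the other way at this size, with 76 and 46.

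The positions of None and S relative to AZD and Glu are described here with TMM scaling, and with another scaling in the next paragraph. Among the 1324 genes at least 2-fold higher in AZD, the None mean lay nearer to the Glu mean than to the AZD mean on the log2 scale in 81.0%, and S did so in 81.5%. For the 1571 genes at least 2-fold higher in Glu, the shares were 80.1% and 82.6%. None lay beyond the Glu mean, on the side away from AZD, in 283 of the genes higher in AZD and in 677 of those higher in Glu. GA lay nearer to Glu in 24.2% of the AZD-higher genes and in 26.2% of the Glu-higher ones, and it lay beyond AZD in 307 and 590. The AZD and Glu means had chosen these genes, so the distance between them is a description. Without Glu replicate 4, None lay nearer to Glu in 82.5% and 85.1%, and GA in 23.1% and 23.4%.

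These positions depended in part on the scaling, because the TMM factors of None (1.17 to 1.20) and GA (0.57 to 0.66) differed from those of AZD and Glu (0.80 to 0.94). With library totals alone, None lay nearer to Glu in 48.1% of the AZD-higher genes and 89.7% of the Glu-higher genes, S in 60.5% and 89.7%, and GA in 57.2% and 13.0%. For the genes higher in AZD the majority thus turned for None and GA and not for S. For the genes higher in Glu, None stayed near Glu and GA near AZD under both scalings. The contrast between AZD and Glu itself moved little, since their factors were alike: the median log2 difference of all genes was 0.03 with TMM and 0.01 with library totals.

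Gene lists from libraries outside the contrast gave a measure in which the scaling factor cancels within each library. The lists themselves were called with TMM scaling, so which genes they hold can depend on it. GA against None at 1 h called 8101 genes (66.7%), and at 2-fold or more 2202 of them rose and 1958 fell. In each library the median log2 CPM of the fallen list was subtracted from that of the risen list. AZD replicates 1 to 3 stood at 3.45, 3.47 and 3.38, and Glu replicates 1 to 4 at 1.86, 1.64, 1.71 and 2.17. All AZD libraries were above all Glu libraries. At 24 h the same measure was 1.82 to 2.05 in AZD, 0.19 to 0.30 in Glu and 0.26 to 0.43 in None, so Glu was not above None there. At 1 h all Glu libraries were above None (0.94 to 1.11) and S (0.52 to 1.36), and GA itself stood at 4.27 to 4.61. Glu replicate 4 was the highest of its group and S replicate 1 the lowest of its own. The None and GA libraries at 1 h had chosen these lists, so their own values at the ends are partly built in. At 1 h Glu lay between None and AZD.

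**Figure D3:**
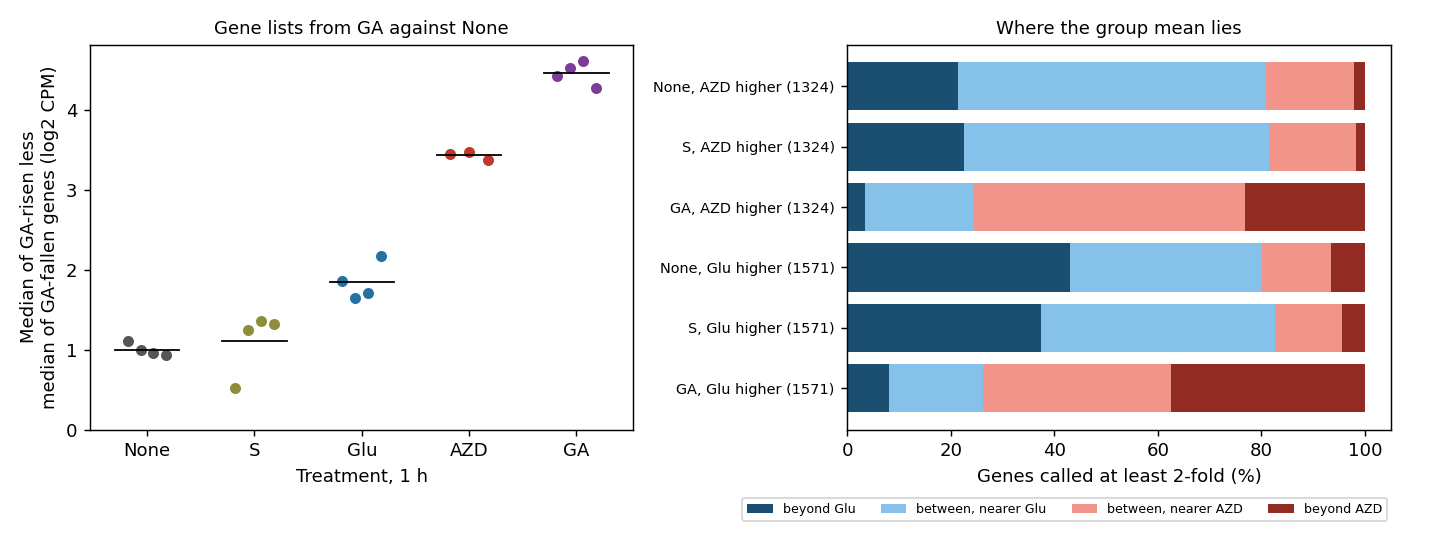
Left, the median log2 CPM of 2202 genes that rose in GA against None less that of 1958 genes that fell, one point per library at 1 h with a line at the group mean. Right, for genes at least 2-fold higher in AZD (1324) or in Glu (1571), the percentage in which the None, S or GA mean lay beyond the Glu mean, between and nearer Glu, between and nearer AZD, or beyond the AZD mean. AZD libraries stood at 3.38 to 3.47 and Glu libraries at 1.64 to 2.17, and None and S lay mostly nearer Glu with TMM scaling.

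Each treatment was also set beside other libraries of the same time. AZD against S called 6549 genes (53.9%), 3447 higher and 3102 lower, and Glu against None called 3781 (31.1%), 2124 higher and 1657 lower. With library totals alone the splits were 1673 and 4524 for AZD against S and 727 and 5859 for Glu against None. Without S replicate 1, AZD against S had 2813 higher and 3386 lower. The 2 comparisons share no library. Of the 3447 genes higher in AZD than in S, 25.6% were higher and 11.5% lower in Glu than in None. Of the 3102 lower in AZD, 21.7% were lower and 13% higher in Glu. Beside these, genes with no call in AZD against S were higher in Glu in 15% and lower in 10.5%. Over all 12142 genes tested the numbers higher and lower in Glu were 2124 and 1657. Most genes called for AZD, 62.8% of the higher and 65.3% of the lower ones, had no call in Glu against None, which does not show that glucose left them unchanged. Of the 2124 genes higher in Glu, 41.6% were higher and 19% lower in AZD, and of the 1657 lower in Glu, 40.7% were lower and 24% higher in AZD. Genes with no call in Glu against None were higher in AZD in 25.9% and lower in 24.2%.

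Where both comparisons called a gene, the direction was more often shared than opposed. Of 2359 such genes, 1558 moved the same way and 801 (34.0%) in opposite directions, 398 up in AZD and down in Glu and 403 the reverse. The median log2 fold change between AZD and Glu was 1.71 for the 398 and -1.29 for the 403. Choosing genes by opposite directions by itself gives a large direct difference, so these medians are a description. Genes higher in both (884) had a median of 0.12, and genes lower in both (674) a median of -0.46. The 2165 genes higher in AZD with no call in Glu had a median of 0.77, and the 2025 lower in AZD with no call in Glu a median of -0.93. Without Glu replicate 4 and S replicate 1, 2281 genes were called in both and 932 (40.9%) moved in opposite directions.

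Over all genes the log2 fold changes of the 2 comparisons, taken with their signs, were nearly uncorrelated. Sizes without regard to sign were not correlated. Pearson's r across the 12142 genes was 0.08 and Spearman's rho 0.14, and without Glu replicate 4 and S replicate 1 they were 0.02 and 0.03. Genes are not independent replicates, and the groups share the sequencing and the scaling. With library totals alone 3858 genes were called in both and 23.6% moved in opposite directions, and the opposed genes were then mostly up in AZD and down in Glu (696 against 215). With the DESeq2 size factors the share was 33.9%.

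**Figure D4:**
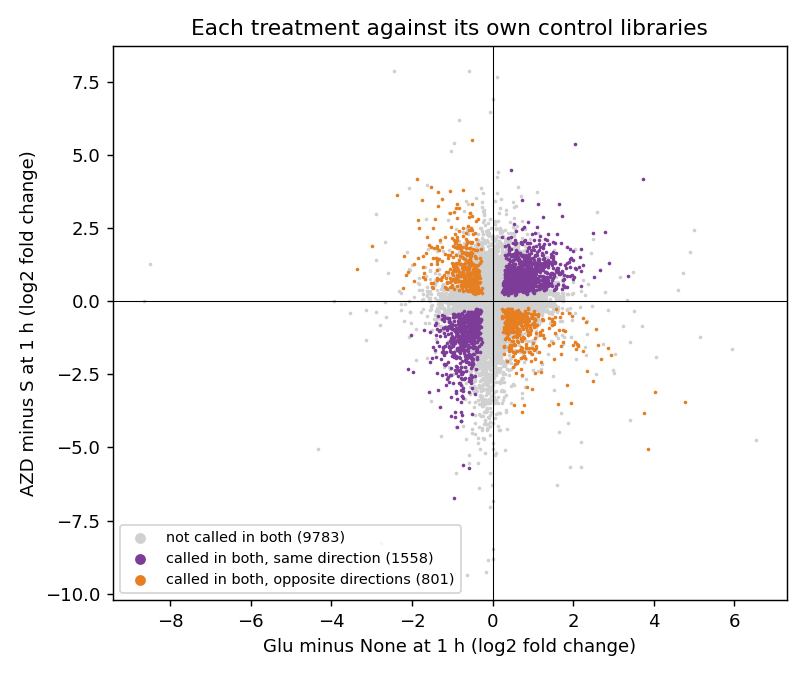
Log2 fold change of AZD against S (vertical axis) and of Glu against None (horizontal axis) at 1 h, one point per gene, for comparisons that share no library. Purple points were called in both in the same direction (1558), orange points in opposite directions (801), and the cloud as a whole has no clear slope (r = 0.08).

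The same contrast at 24 h, in 8 other libraries, was wider. There 9413 genes (77.5%) differed between AZD and Glu, 4958 higher in AZD and 4455 higher in Glu, and the root mean square difference of the group means was 1.64 against 1.06 at 1 h. Sample titles at 24 h carry another prefix than at 1 h, and the time and whatever the prefix stands for cannot be told apart. Across genes the AZD-Glu differences at 1 h and 24 h had r = 0.41 and rho = 0.47 with no library in common, and r = 0.44 without Glu replicate 4 at 1 h. Of the 3252 genes higher in AZD at 1 h, 65.7% were higher in AZD at 24 h and 17.2% were higher in Glu. Of the 3444 higher in Glu at 1 h, 64.0% were higher in Glu at 24 h and 16.2% were higher in AZD. Among genes not called at 1 h, 41.6% were higher in AZD and 31.1% higher in Glu at 24 h.

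The size of the difference changed between the times for 7507 genes (61.8%), of which 3302 had a more positive AZD-Glu difference at 1 h and 4205 at 24 h (edgeR's quasi-likelihood test of the difference between the differences, adjusted p under 0.05). The median change over all genes was -0.18, and with library totals alone it was -0.34 and the split 2687 and 4670. The changed genes included 559 that were higher in AZD at 1 h and higher in Glu at 24 h, with median log2 differences of 0.69 and -1.07. A further 557 did the reverse, with medians of -0.71 and 0.79. Genes called at 24 h and not at 1 h made up 1707 (higher in AZD) and 1357 (higher in Glu) of the changed genes, and those called at 1 h and not at 24 h made up 363 and 510. The largest early differences were smaller later: of the 62 genes at least 16-fold higher in Glu at 1 h, 51 were still higher in Glu at 24 h and 52 had a smaller or reversed difference by the test of the change. Of the 30 at least 16-fold higher in AZD, the numbers were 20 and 26. These genes were chosen by their size at 1 h, which by itself favours a smaller value at the other time.

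The 4 genes named above illustrate this. At 24 h Cz07g24100 stood at 194 ± 15.8 CPM in AZD and 46.2 ± 2.20 CPM in Glu (SD, n = 4 each), and its log2 fold change of 2.07 was smaller than at 1 h (adjusted p of the change 1.73e-17, edgeR). Between the times its mean went from 300.4 to 194 CPM in AZD and from 4.02 to 46.2 CPM in Glu. None went from 5.73 to 38.5 CPM and S from 6.58 to 40.2 CPM, higher at 24 h in every library as in Glu. Cz03g37180 kept most of its difference, with 50.9 ± 7.07 CPM in AZD and 1.28 ± 0.305 CPM in Glu (log2 5.28, adjusted p of the change 0.0441, edgeR). The genes near absent in AZD at 1 h were present at 24 h. Cz07g15250 stood at 7.24 ± 1.64 CPM in AZD against 31.8 ± 4.55 CPM in Glu, and Cz07g04070 at 11.6 ± 1.93 against 46.2 ± 4.42 CPM (adjusted p of the change 5.47e-10 and 1.13e-13, edgeR). Their means at 24 h were 11.5 and 18.1 CPM in None and 10.9 and 18.4 CPM in S.

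The largest changes between the times, by a rule that asked for no overlap of AZD and Glu libraries at either time, were in genes with smaller differences at 1 h than at 24 h. Cz06g18150 stood at 99.1, 116 and 105 CPM in AZD and 56.4, 60.8, 47.2 and 3.61 CPM in Glu at 1 h. The low Glu library was replicate 4, and S replicate 1 was also low with 6.37 CPM against 76.0 to 96.5 CPM in the other S libraries. At 24 h AZD held 0 to 0.43 CPM of it and Glu 21.6 to 26.6 CPM, so the higher group had switched. None (0.07 to 0.22 CPM) and S (0.09 to 0.28 CPM) were near AZD at that time, and Glu stood apart from them. The log2 difference went from 1.35 ± 0.52 at 1 h to -7.23 ± 0.79 at 24 h (SE; adjusted p of the change 2.82e-09, edgeR).

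Cz06g05030 stood at 10.5, 13.0 and 18.3 CPM in AZD and at 7.06, 8.55, 5.84 and 6.34 CPM in Glu at 1 h, a log2 fold change of 0.999, with an SE of 0.32. At 24 h all 4 AZD libraries had 0 counts of it and Glu held 0.10 to 0.89 CPM. Its level at 24 h was at least 17.4-fold higher in Glu, against a floor of 3 counts over the AZD group. The order of AZD and Glu had turned, at low levels in both (adjusted p of the change 8.41e-08, edgeR). None and S stood far above both at 24 h, with means of 13.55 and 9.76 CPM. The lowest of their libraries held 7.51 CPM, while GA held 0 to 0.05 CPM.

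In the other direction Cz10g22150 and Cz06g26230 changed most. Cz10g22150 stood at 19.4, 6.41 and 27.2 CPM in AZD and 5.55, 5.06, 1.61 and 5.16 CPM in Glu at 1 h, so the lowest AZD library was close to the highest Glu library. At 24 h it stood at 2.38 to 4.04 CPM in AZD and had 0 counts in all 4 Glu libraries, at least 278-fold higher in AZD against a floor of 3 counts over the Glu group (adjusted p of the change 0.000906, edgeR). AZD was the higher group at both times. None and S at 1 h held 1.82 to 13.0 and 1.20 to 9.50 CPM, a wide spread within each group. At 24 h they held 0 to 14.3 and 5.69 to 14.5 CPM.

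Cz06g26230 stood at 41.8, 34.5 and 23.99 CPM in AZD and at 61.6, 50.3, 45.2 and 244 CPM in Glu at 1 h, with the high value in Glu replicate 4. S replicate 1, at 102 CPM, was again far from the other S libraries (30.8 to 42.3 CPM). At 24 h AZD held 203 to 347 CPM and Glu 3.78 to 5.72 CPM, so the order of the groups had turned. None (195 to 258 CPM) and S (284 to 322 CPM) overlapped AZD at that time, and Glu was far below them. The log2 difference went from -1.58 ± 0.41 to 5.74 ± 0.44 (SE; adjusted p of the change 4.14e-12, edgeR), and the change of -7.32 became -6.38 without Glu replicate 4 and S replicate 1.

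**Figure D5:**
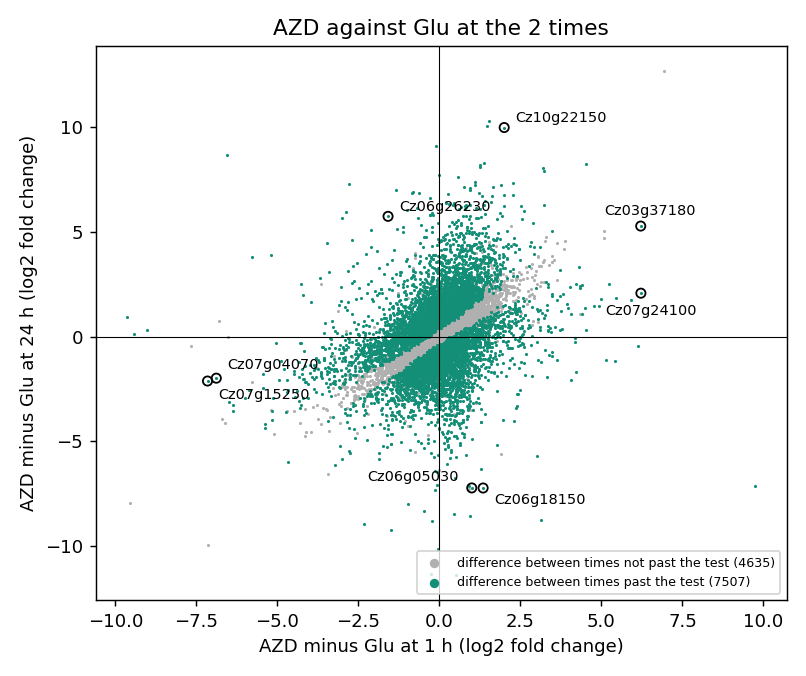
Log2 fold change between AZD and Glu at 24 h (vertical axis) against that at 1 h (horizontal axis), one point per gene. Green points are the 7507 genes whose difference changed between the times, grey points did not pass that test, and circles mark the named genes, of which Cz06g18150, Cz06g05030 and Cz06g26230 lie in quadrants where the higher group switched.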

How the data were processed

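The authors deposited 1 table of estimated counts, some of them fractional, with no scaling for library depth. Reads had been trimmed with BBDUK, per the labels' protocols. Salmon and DESeq2 1.46.0 appear in the submitters' processing notes with no role. For the build, annotation and strand setting, nothing is given in the sources used here. Near-identical or overlapping genes can share reads.

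Counts of 12459 genes in 38 libraries were rounded, and 12142 genes passed edgeR's filterByExpr (minimum count 10, minimum total 15). Libraries were scaled with TMM. One edgeR 4.0.16 quasi-likelihood model (R 4.3.3), with 1 mean for each group, covered all 38 libraries and had 28 residual degrees of freedom, after a test on simulated data. P-values were adjusted by Benjamini-Hochberg over all genes tested. SEs are approximated from the fold change and its F statistic. Levels are CPM of the library total times its TMM factor, while shares of counts use library totals alone. Levels compared between groups with unlike factors, such as None and GA, thus carry this scaling. Medians, distances and SDs per gene use log2 CPM with a prior count of 2. Alternatives were another scaling or filter, DESeq2 1.42.0, fewer groups, libraries left out and a replicate block. Exact intervals and floors cover counting error only. The treatments compared, the lists and the tests were chosen with earlier results of these data known. The naming rule took the first 2 genes in each direction, ranked by log2 fold change, among those with an adjusted p under 0.05, at least 10 CPM in the higher group and no overlap of AZD and Glu libraries. For the change between the times the ranking was by the log2 change, with no overlap at either time. At least 10 CPM was then asked of the highest AZD or Glu mean at either time, so both means at 24 h could be lower. Between AZD or Glu replicates at 1 h the chi-square divided by its degrees of freedom was 33.3 to 410, above sampling noise, and 0 columns belonged to other samples.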

Additional observations from a re-analysis of the deposited data

Results flagged for a closer look

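In groups of 4 libraries, 56 sets of values were examined for a library far from the others, and 7 had one. Chance gives about 1 in 20. S replicate 1 at 1 h accounts for 3: its distance of 0.753 log2 units to the rest of its group (0.467 to 0.5004 for the others), its 0.517 in the GA-defined lists (1.25 to 1.36) and its 23.2 CPM of Cz07g15250 (14.4 to 14.6). Glu replicate 4 at 1 h held 243.7 CPM of Cz06g26230 against 45.2 to 61.6 CPM. Glu replicate 3 at 1 h held 1.61 CPM of Cz10g22150 against 5.06 to 5.55 CPM. At 24 h Glu replicate 4 held 21.6 CPM of Cz06g18150 against 26.1 to 26.6 CPM, and AZD replicate 4 held 2.38 CPM of Cz10g22150 against 3.88 to 4.04 CPM.

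The AZD-Glu difference at 1 h and at 24 h was unequal for 7507 genes by the test of that difference (edgeR). On the log2 scale, 1 h less 24 h, it was 4.15 in Cz07g24100, 0.936 in Cz03g37180, -5.03 in Cz07g15250 and -4.89 in Cz07g04070. For the genes named for their change it was 8.58 in Cz06g18150, 8.23 in Cz06g05030, -7.98 in Cz10g22150 and -7.32 in Cz06g26230. Cz06g05030 and Cz10g22150 had a group at 0 counts at 24 h, and their fitted values depend on the prior count.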

How the results depend on the processing

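The count of genes that differed between AZD and Glu at 1 h ran from 5357 (a fit of these 7 libraries alone) to 7074 (without Glu replicate 4 and S replicate 1) over 15 alternatives, and DESeq2 called 6958. In each alternative at least 5289 of the 6696 genes were called in the same direction, and 0 in the opposite one. Which side held more genes is not settled: 42.9 to 51.2% were higher in AZD, above 50% in 3 alternatives. Leaving out single libraries gave 5826 (without AZD replicate 3) to 6743 genes. Each named gene kept its direction and call in the comparison it was named for, with adjusted p-values up to 0.00411. Their values in other comparisons, such as the change of Cz03g37180 (adjusted p = 0.0441, edgeR), were not recomputed. At 24 h the count was 8673 to 9655, for the change between times 7051 to 7690, and for AZD against S 5450 to 6717, where library totals alone moved the share of higher genes from 52.6% to 27.0%. Glu against None called 6586 genes with library totals alone, 11% of them higher, against 2972 to 4053 in the others. This scaling moved the median log2 difference of all genes to -0.45. The replicate block called 6330 genes for AZD against Glu at 1 h. The deviations of same-numbered AZD and Glu libraries correlated at 0.02, -0.10 and -0.26, and 0 of 3 AZD libraries correlated best with their own number. So few libraries cannot tell whether same-numbered ones share a culture or batch, and the labels do not say. Depth limits the fold of genes with few AZD counts, such as Cz07g15250 with 10.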

Other observations

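The most abundant transcripts differed about as often as all genes tested, of which 55.1% did. Among the 100 genes with the highest mean in AZD or Glu at 1 h (1692 to 23293 CPM), 28 were higher in AZD, 29 were higher in Glu and 43 did not pass the test. At least 2-fold differences numbered 15 and 18, and the log2 fold changes ran from -3.01 to 6.13. These genes were chosen by level in the same libraries, and whether their share is unlike that of other genes was not tested.

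Differences between AZD and Glu were spread over the ID prefixes, which the deposited table does not explain. Beside 55.1% of all genes tested, between 48.5 and 59.2% differed in each of the prefixes Cz01 to Cz19, and 45.8% of the 426 genes with the prefix UNPL. Whether any prefix departs from the whole was not tested. By direction, 23.7 to 30.9% of genes were higher in AZD and 22 to 32.3% higher in Glu in the Cz prefixes, and 20.4% and 25.4% in UNPL.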
